A study of Mus musculus with 14 samples.

Results

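NRF2 and antioxidant genes are described here as a set of 34 genes, taken by symbol from the 20207 genes listed for each RNA library. The set was chosen by gene name and not by a measured value, although earlier results of these data were known at the time. The cells were mouse embryo fibroblasts (MEFs) of the 129/Sv strain, and their RNA was sequenced as 10 libraries in 4 groups. The groups were p53-/- cells given doxorubicin (2 libraries), untreated p53-/- cells (2 libraries), wild-type cells given doxorubicin (3 libraries) and untreated wild-type cells (3 libraries). The p53-/- cells are called p53-null below. Doxorubicin, a topoisomerase poison that breaks DNA and can also generate superoxide by redox cycling, was given at 0.2 µg/ml for 6 h. Libraries were made by 3′ sequencing of poly(A)-selected RNA. Whether replicates came from separate embryos is not given in the sources used here, so p-values reflect only how far these libraries scatter, which may in part be technical.

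NRF2, encoded by Nfe2l2, is a transcription factor that KEAP1 holds in the cytoplasm and hands to a cullin ligase for destruction. Oxidants and electrophiles modify cysteines of KEAP1, NRF2 then enters the nucleus, pairs with a small MAF protein and binds antioxidant response elements. Its classical targets detoxify quinones and haem, make and use glutathione, recharge thioredoxin, and supply NADPH, the electron source for both systems. Superoxide dismutases, catalase and glutathione peroxidases remove superoxide and peroxides, and ferritin stores iron that would otherwise feed radical formation.

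Levels are given in CPM, the usual depth-scaled read count, after scaling of the libraries, and are compared between libraries for 1 gene at a time. Total reads over the listed genes were 25252375 and 25970157 in treated p53-null, 18099506 and 18698205 in untreated p53-null, 10602049 to 11770448 in treated wild-type and 9768162 to 11701250 in untreated wild-type libraries, so depth followed genotype. The p53 target Cdkn1a, which encodes the cell cycle inhibitor p21, had 53.9 and 44.4 CPM in treated and 31.5 and 29.3 CPM in untreated p53-null libraries. It had 4443, 5096 and 4071 CPM in treated and 559, 754 and 745 CPM in untreated wild-type libraries, so it followed the labels. Trp53 itself had 29.5 and 44.1 CPM in treated and 69.6 and 74.2 CPM in untreated p53-null libraries, against 23.9 to 43.4 CPM in treated and 20.1 to 25.2 CPM in untreated wild-type libraries. It was called higher in untreated p53-null cells (log2 fold 1.62, SE 0.29, limma adjusted p = 0.00536). Where these reads lie relative to the deleted part is not known here, so they do not check the labels. All 16 fibroblast markers were detected, with summed levels of 6179 to 8318 CPM in p53-null and 7548 to 11137 CPM in wild-type libraries. Among them S100a4 had 536 to 865 CPM in p53-null and 1594 to 3591 CPM in wild-type libraries. In untreated p53-null cells 8 of the 16 were called higher and 1 lower, beside 20.4% and 12.8% of all genes. In treated ones 0 were called higher and 1 lower, beside 5.24% and 6.83%. Summed macrophage markers were 89.2 to 129.9 CPM in p53-null libraries, while wild-type libraries differed among themselves. They had 47.4, 228 and 244 CPM in treated and 103, 512 and 541 CPM in untreated wild-type replicates 1, 2 and 3. The summed level was carried by C1qb, Tyrobp, Csf1r and C1qa, and none of the 17 macrophage markers in the files was at 0 in every library. Not all markers followed the sum. Emr1 was at 0 CPM in every untreated wild-type library. Ctss had 0.562 to 0.833 CPM in untreated wild-type and 1.02 to 2.81 CPM in p53-null libraries.

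The sequence feature that ties many members to NRF2 is the antioxidant response element, and its core TGACNNNGC was searched on both strands of RefSeq promoter windows of build GRCm38.p6, 250 bases before to 50 after each gene start. Windows were matched for 29 of 34 members; Prdx6, Gsta4, Gsr, Gclc and Hmox1 were not matched. The core was found for 10 of these 29 members, namely Nfe2l2, Gclm, Gsta3, Txnrd1, Srxn1, Prdx1, G6pdx, Pgd, Me1 and Sod1. Over all genes with a window, 14.0% held it. A match of these letters is a description and does not show that NRF2 binds there. Sequence outside the windows was not searched, so a window without the core does not show that a gene has none. Members called in some comparison below whose windows lacked the core were Keap1, Osgin1, Taldo1, Ftl1, Fth1, Cat, Sod2 and Gpx1. The windows of 4 members picked from those with the core are printed 5′ to 3′ on the strand of the gene. The core, or its reverse complement, is in capitals. Prdx1 was called in treated wild-type cells and Txnrd1 between untreated genotypes. Srxn1 and G6pdx were called in no comparison but were highest in replicate 3 of both wild-type groups.
Prdx1 (chr4:116685349-116685648, plus strand): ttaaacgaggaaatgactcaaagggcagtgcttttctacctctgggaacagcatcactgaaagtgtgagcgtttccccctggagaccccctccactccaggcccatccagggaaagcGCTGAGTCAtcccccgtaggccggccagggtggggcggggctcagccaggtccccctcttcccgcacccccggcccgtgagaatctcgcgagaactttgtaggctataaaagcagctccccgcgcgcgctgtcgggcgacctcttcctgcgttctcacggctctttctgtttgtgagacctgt
Txnrd1 (chr10:82858956-82859255, plus strand): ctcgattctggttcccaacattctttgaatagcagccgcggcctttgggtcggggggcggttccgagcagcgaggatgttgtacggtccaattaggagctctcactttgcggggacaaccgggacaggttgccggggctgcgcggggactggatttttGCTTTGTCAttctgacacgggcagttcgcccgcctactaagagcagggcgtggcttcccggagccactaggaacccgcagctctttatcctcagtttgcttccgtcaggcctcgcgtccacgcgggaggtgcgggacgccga
Srxn1 (chr2:152105274-152105573, plus strand): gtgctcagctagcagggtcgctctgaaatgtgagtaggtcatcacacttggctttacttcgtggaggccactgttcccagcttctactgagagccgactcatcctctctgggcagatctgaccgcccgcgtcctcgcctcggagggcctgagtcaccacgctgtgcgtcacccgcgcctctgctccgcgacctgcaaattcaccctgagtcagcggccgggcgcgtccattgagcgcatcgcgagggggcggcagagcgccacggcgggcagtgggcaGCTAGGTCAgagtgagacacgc
G6pdx (chrX:74428831-74429130, minus strand): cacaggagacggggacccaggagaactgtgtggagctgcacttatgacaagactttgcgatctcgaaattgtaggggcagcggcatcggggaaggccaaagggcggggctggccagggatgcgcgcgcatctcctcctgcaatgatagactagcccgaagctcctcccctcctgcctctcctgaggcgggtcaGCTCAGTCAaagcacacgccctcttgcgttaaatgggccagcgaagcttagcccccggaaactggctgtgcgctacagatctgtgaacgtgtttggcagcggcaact
The core lies 133 bases before the start of Prdx1, 92 bases before that of Txnrd1, 57 bases before that of G6pdx and 28 bases after that of Srxn1, and in all of these windows it is on the opposite strand to the gene. A core on the strand of the gene was found 240 bases before the start of Nfe2l2 and 6 bases before that of Me1.

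Of the 34 members, 30 reached 1 CPM in at least 2 libraries and were tested, with limma on log2(CPM + 0.5) over 11177 genes and an adjusted p under 0.05 as the call. With doxorubicin in p53-null cells, 0 members were called in either direction, beside 0% of all genes higher and 0% lower. There, limma gave 3 members and 1255 genes an unadjusted p under 0.05, limma-voom also called 0 genes, and the members' median was 0.11 beside -0.07 for all genes. In wild-type cells, 3 members rose with doxorubicin (Hmox1, Gclc and Prdx1), against 8.02% of all tested genes, and 1 fell (Keap1), against 4.56%. The median log2 fold of the tested members was 0.52, beside 0.05 for all tested genes. A direct test of the p53-null response minus the wild-type response called 0 members, beside 0.447% of all genes higher and 1.89% lower. It gave 10 of the 30 members and 2357 of the 11177 genes an unadjusted p under 0.05. With limma-voom, 0 members and 205 genes were called in this difference. The median difference was -0.48 for members and -0.13 for all genes.

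Between genotypes, 2 members were called with doxorubicin and 9 without it. In treated cells, Sod2 was higher in p53-null libraries, where 5.24% of all genes were called higher, and Osgin1 was lower, where 6.83% were called lower. In untreated p53-null cells, 4 members were higher than in untreated wild-type cells (Nfe2l2, Txnrd1, Cat and Sod2), against 20.4% of all genes, and 5 were lower (Gsta4, Taldo1, Ftl1, Fth1 and Gpx1), against 12.8%. The members' median was -0.54 with and -0.05 without doxorubicin, beside 0.03 and 0.09 for all genes. Scaling by library size alone moved the median of all genes to 0.29 with and 0.43 without doxorubicin. Under it 9 members were higher and 5 lower in untreated p53-null cells. Under that scaling, all-gene calls split into 1211 higher and 555 lower with doxorubicin, in place of 586 and 763, and into 3339 and 517 without it, in place of 2279 and 1426. Comparisons that use the same group share its libraries, so their values for 1 gene are not independent of each other.

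**Figure D1:**
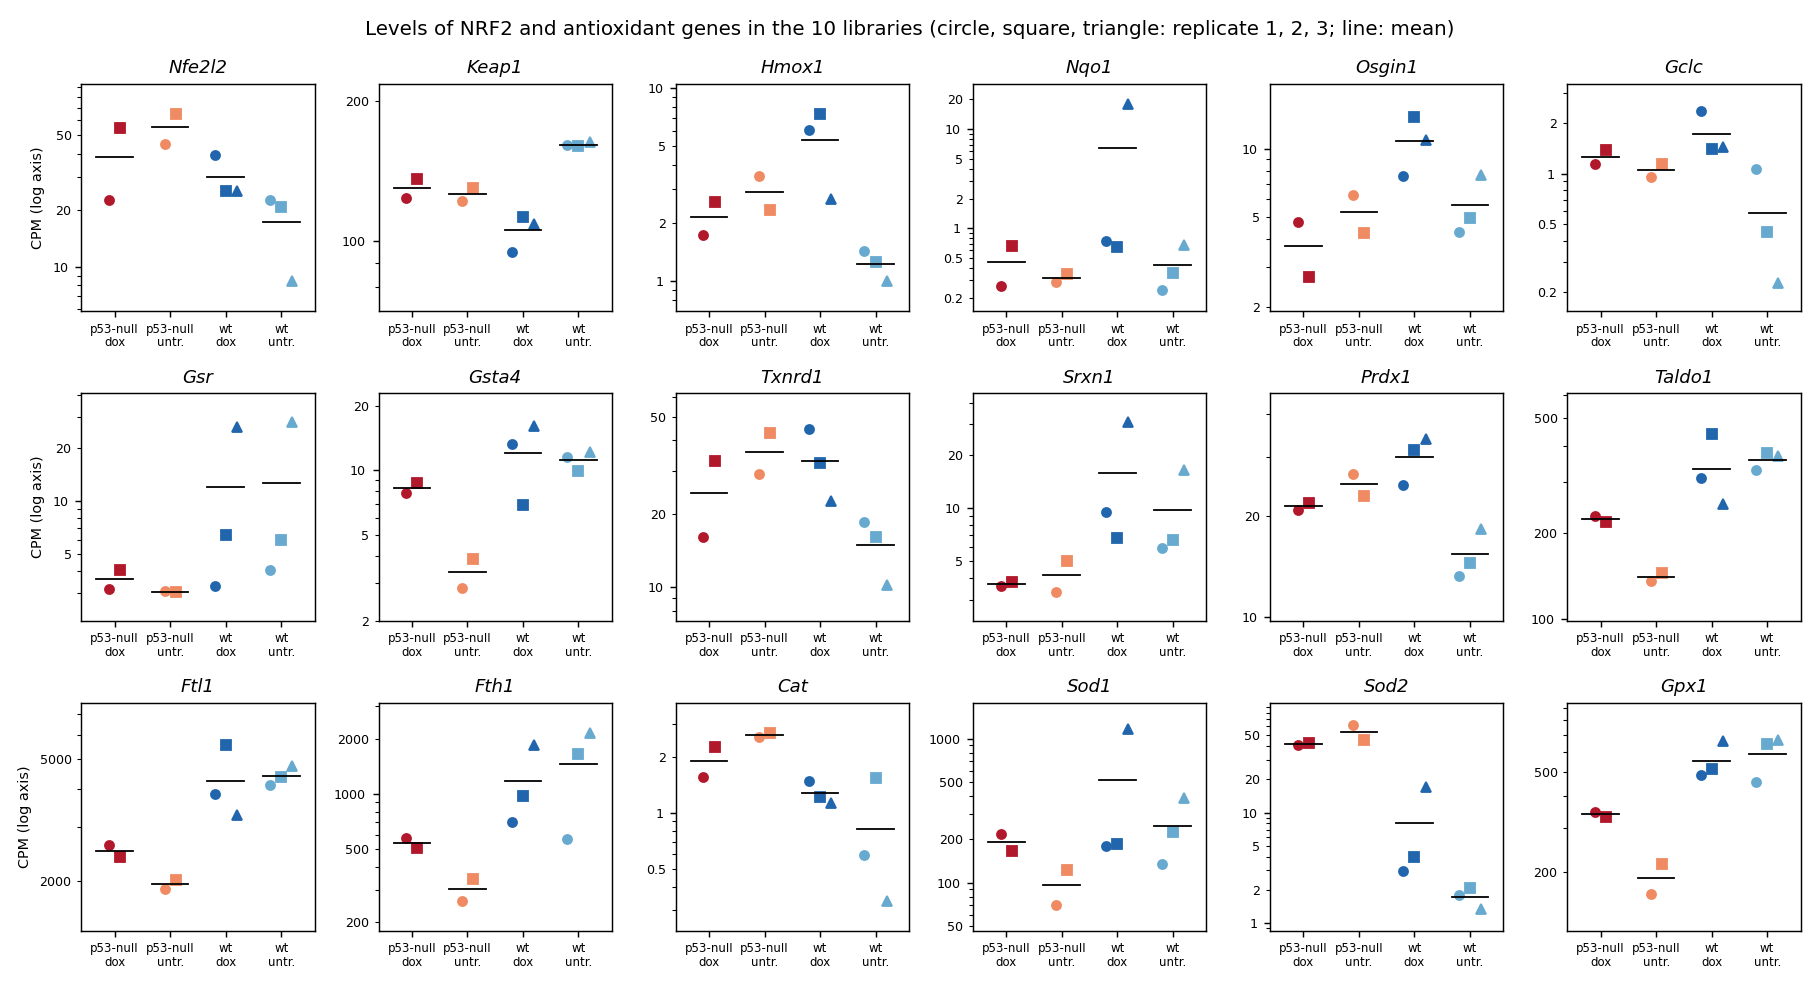
Level of 18 members in each of the 10 libraries, in CPM on a log axis, with groups from left to right treated p53-null, untreated p53-null, treated wild type and untreated wild type. Points are libraries, with the marker giving the replicate number, and lines are group means. Sod2 lay at 40.4 to 61.6 CPM in p53-null libraries and at 1.35 to 17 CPM in wild-type libraries.

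Of the regulators, the RNA of Nfe2l2 was higher in p53-null than in wild-type cells without treatment, and that of Keap1 fell with doxorubicin in wild-type cells. Nfe2l2 had 22.8 and 54.3 CPM in treated and 45 and 65.2 CPM in untreated p53-null libraries. It had 39.4, 25.3 and 25.2 CPM in treated and 22.7, 20.8 and 8.43 CPM in untreated wild-type libraries. Both untreated p53-null libraries lay above all untreated wild-type ones, whereas treated p53-null libraries lay on either side of the treated wild-type ones. The log2 fold between untreated genotypes was 1.74 (SE 0.48, limma adjusted p = 0.0224), and the call was lost without either untreated p53-null library or without untreated wild-type replicate 3. All treated wild-type libraries lay above all untreated ones, by a log2 fold of 0.86 (SE 0.43, limma adjusted p = 0.228). With replicate numbers paired within each genotype that adjusted p was 0.0469, and with only wild-type numbers paired it was 0.105. Without untreated replicate 3 the fold was 0.42 (limma adjusted p = 0.583). Keap1, the sensor that marks NRF2 for destruction, had 124 and 136 CPM in treated and 122 and 130.2 CPM in untreated p53-null libraries. It had 94.8, 113 and 109 CPM in treated and 161, 159.7 and 163 CPM in untreated wild-type libraries, with no overlap between the wild-type groups. The log2 fold with doxorubicin was 0.04 (SE 0.19, limma adjusted p = 0.957) in p53-null and -0.61 (SE 0.16, limma adjusted p = 0.0305) in wild-type cells. The test of that difference did not pass (0.65, SE 0.25, limma adjusted p = 0.179, and 0.108 with wild-type numbers paired). The wild-type call was lost under 7 of 19 alternatives. These were library size alone, only the wild-type groups in the fit, and leaving out treated wild-type replicate 1, any untreated wild-type library or untreated p53-null replicate 1.

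Among the enzymes for quinones, haem and carbonyls, Hmox1 rose with doxorubicin in wild-type cells. Hmox1 encodes haem oxygenase, which opens the haem ring and releases its iron. It had 1.74 and 2.58 CPM in treated and 3.5 and 2.33 CPM in untreated p53-null libraries. Wild-type libraries had 6.07, 7.35 and 2.68 CPM when treated and 1.43, 1.26 and 1.01 CPM when untreated. Every treated wild-type library was above every untreated one, although replicate 3 was well below the other two treated libraries. The log2 fold was -0.36 (SE 0.45, limma adjusted p = 0.793) in p53-null and 1.67 (SE 0.36, limma adjusted p = 0.0154) in wild-type cells. The difference between these responses was -2.02 (SE 0.58, limma adjusted p = 0.0938), with an adjusted p of 0.0333 when wild-type numbers were paired. Hmox1 had 9 to 14 reads in the untreated wild-type libraries, and its wild-type call was lost with only the wild-type groups in the fit and without treated replicate 1, untreated replicate 2 or untreated replicate 3. Macrophages also express Hmox1, and summed macrophage markers were lower in each treated wild-type library than in the untreated library of the same number. Of the 12 tested macrophage markers, 0 were called higher and 0 lower with doxorubicin in wild-type cells, beside 8.02% and 4.56% of all genes. The part of macrophages in the Hmox1 values was not tested. In bulk RNA, fewer cells of a type and less RNA per cell cannot be told apart.

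Nqo1, the quinone reductase often read as the standard NRF2 target, had at most 21 reads in all but 1 library and was not tested. It had 7 and 21 reads (0.265 and 0.66 CPM) in treated and 6 and 8 reads (0.288 and 0.351 CPM) in untreated p53-null libraries. Treated wild-type libraries had 8, 7 and 173 reads (0.747, 0.651 and 17.8 CPM), and untreated ones 2, 4 and 6 reads (0.238, 0.359 and 0.674 CPM). Treated wild-type replicate 3 thus stood alone, and the others overlapped across groups. Osgin1, an oxidative stress-induced growth inhibitor, had 4.74 and 2.7 CPM in treated and 6.24 and 4.26 CPM in untreated p53-null libraries. It had 7.57, 13.8 and 11 CPM in treated and 4.29, 4.94 and 7.64 CPM in untreated wild-type libraries. Treated p53-null libraries lay below all treated wild-type ones, with a log2 fold of -1.42 (SE 0.38, limma adjusted p = 0.0375), a call lost under 12 of 19 alternatives. Among these were library size alone, thinned reads, and leaving out either library of either p53-null group, treated wild-type replicate 2 or 3, or untreated wild-type replicate 2. Its wild-type log2 fold with doxorubicin was 0.88 (SE 0.34, limma adjusted p = 0.129); the adjusted p was 0.0361 with numbers paired within each genotype and 0.0595 with only wild-type numbers paired. The carbonyl reductase Cbr3 and the aldo-keto reductase Akr1b8 were not called. Cbr3 ranged from 0.531 to 1.04 CPM in treated and 0.432 to 0.747 CPM in untreated p53-null libraries, from 0.837 to 4.53 CPM in treated and from 0.238 to 0.898 CPM in untreated wild-type libraries. Akr1b8 ranged from 10.8 to 15.6 CPM in p53-null and from 8.93 to 57.4 CPM in wild-type libraries, and its reads can be shared with other aldo-keto reductases of the family.

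Of the 4 genes of glutathione supply, Gclc was called with doxorubicin in wild-type cells and the other 3 in no comparison. Gclc and Gclm encode the catalytic and the modifier subunit of glutamate-cysteine ligase, the rate-limiting enzyme of glutathione synthesis. Gclc had 1.14 and 1.38 CPM in treated and 0.96 and 1.14 CPM in untreated p53-null libraries. It had 2.33, 1.39 and 1.44 CPM in treated and 1.07, 0.449 and 0.225 CPM in untreated wild-type libraries, without overlap. The wild-type log2 fold was 1.09 (SE 0.32, limma adjusted p = 0.0491). It rested on 25, 15 and 14 reads against 9, 5 and 2 reads, and the call was lost under 15 of 19 alternatives, among them leaving out any library except untreated wild-type replicate 1. Gclm had 14.3 and 30.5 CPM in treated and 16.6 and 29.8 CPM in untreated p53-null libraries. Wild-type libraries had 13.3, 5.02 and 7.82 CPM when treated and 14.3, 13 and 5.62 CPM when untreated. In both conditions the p53-null libraries lay above the wild-type ones, by a log2 fold of 1.32 with doxorubicin (SE 0.53, limma adjusted p = 0.132) and 1.09 without (SE 0.53, limma adjusted p = 0.132), neither past the threshold. In wild-type cells the log2 fold of Gclm with doxorubicin was -0.32 (SE 0.47, limma adjusted p = 0.708).

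Slc7a11 encodes the cystine carrier that brings in the sulphur for glutathione. It had 34.6 and 22.7 CPM in treated and 52.7 and 47.9 CPM in untreated p53-null libraries. Wild-type libraries had 41, 77.8 and 29.2 CPM when treated and 39.5, 28.4 and 20.6 CPM when untreated. Treated lay below untreated libraries in p53-null cells without overlap, and the wild-type groups overlapped. The log2 fold was -0.83 (SE 0.45, limma adjusted p = 0.514) in p53-null and 0.66 (SE 0.37, limma adjusted p = 0.278) in wild-type cells. The difference of -1.49 (SE 0.58) did not pass (limma adjusted p = 0.186, and 0.0627 with wild-type numbers paired). Without treated wild-type replicate 2, the highest library, the wild-type fold was 0.25 (limma adjusted p = 0.671). Gsr, glutathione reductase, had 3.15 and 4.06 CPM in treated and 3.07 and 3.03 CPM in untreated p53-null libraries. Its wild-type levels were 3.27, 6.42 and 26.4 CPM when treated and 4.05, 6.02 and 28 CPM when untreated. The level thus followed the replicate number and not the treatment, with a wild-type log2 fold of -0.09 (SE 0.77, limma adjusted p = 0.957).

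The glutathione transferases couple glutathione to electrophiles, and 3 of the 6 in the set had too few reads to test. Gsta1 had 0 to 4 reads per library, Gsta2 0 to 3 and Gsta3 0 to 4, where a count of 0 allows up to 3 reads; Gsta1 and Gsta2 are near-identical copies. Gsta4, which acts on the lipid peroxidation product hydroxynonenal, had 7.88 and 8.74 CPM in treated and 2.83 and 3.87 CPM in untreated p53-null libraries. Wild-type libraries had 13.3, 6.88 and 16.1 CPM when treated and 11.5, 9.97 and 12.2 CPM when untreated. Untreated p53-null libraries were lower than all other libraries, by a log2 fold of -1.62 from untreated wild type (SE 0.36, limma adjusted p = 0.0103), a call lost without either of them. In p53-null cells Gsta4 had a log2 fold of 1.21 with doxorubicin (SE 0.39, limma adjusted p = 0.362), and in wild-type cells of 0.02 (SE 0.32, limma adjusted p = 0.975). Gstm1 ranged from 6.76 to 17.5 CPM in p53-null and from 2.7 to 75.4 CPM in wild-type libraries, both wild-type extremes being treated libraries. Gstp1 was at 2.11 to 3.6 CPM in p53-null, 2.57 to 7.16 CPM in treated and 1.01 to 2.38 CPM in untreated wild-type libraries. Its wild-type log2 fold of 1.09 (SE 0.39) had a limma adjusted p of 0.104, and of 0.0226 with wild-type numbers paired. Reads of Gstm1 and Gstp1 can be shared with near-identical copies, which makes both uncertain.

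All 5 folds of the thioredoxin group with doxorubicin were positive in wild-type cells, and of these Prdx1 alone was called. How many of all genes had a positive fold was not counted. The log2 fold of Srxn1 was 0.52 (SE 0.55, limma adjusted p = 0.579), and it was -0.17 without treated wild-type replicate 3. Prdx1, a peroxiredoxin that reduces hydrogen peroxide, had 20.8 and 21.9 CPM in treated and 26.7 and 22.9 CPM in untreated p53-null libraries. It had 24.7, 31.4 and 33.9 CPM in treated and 13.3, 14.5 and 18.3 CPM in untreated wild-type libraries. Treated p53-null libraries were all below and treated wild-type libraries all above the untreated libraries of their genotype. The log2 fold was -0.21 (SE 0.27, limma adjusted p = 0.799) in p53-null and 0.94 (SE 0.22, limma adjusted p = 0.0202) in wild-type cells. The difference of -1.15 (SE 0.35) had a limma adjusted p of 0.108, and of 0.0431 with wild-type numbers paired. The wild-type call was lost with only the wild-type groups in the fit and without treated replicate 2, treated replicate 3 or untreated replicate 2.

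Txnrd1, thioredoxin reductase, had 16.1 and 32.8 CPM in treated and 29.1 and 42.9 CPM in untreated p53-null libraries. It had 44.5, 32.2 and 22.5 CPM in treated and 18.6, 16.1 and 10.2 CPM in untreated wild-type libraries. Without treatment both p53-null libraries exceeded all wild-type ones, by a log2 fold of 1.25 (SE 0.40, limma adjusted p = 0.0378), a call lost under 6 of 19 alternatives. These were no filter, the deposited values, and leaving out either untreated p53-null library or untreated wild-type replicate 2 or 3. With doxorubicin the log2 fold was -0.61 in p53-null cells (SE 0.44, limma adjusted p = 0.629). In wild-type cells it was 1.11 (SE 0.36) without overlap, with a limma adjusted p of 0.0745, and of 0.0205 with wild-type numbers paired. The difference of responses was -1.71 (SE 0.57), with a limma adjusted p of 0.136, and of 0.0455 with wild-type numbers paired. Srxn1, sulphiredoxin, which repairs over-oxidised peroxiredoxins, had 3.6 and 3.77 CPM in treated and 3.31 and 5.01 CPM in untreated p53-null libraries. Wild-type libraries had 9.53, 6.79 and 31 CPM when treated and 5.95, 6.56 and 16.6 CPM when untreated, again with replicate 3 highest. All p53-null libraries lay below all wild-type libraries, but neither comparison passed (treated log2 fold -1.66, SE 0.61, limma adjusted p = 0.108; untreated -1.01, SE 0.61, limma adjusted p = 0.221). Txn1, thioredoxin itself, ranged from 23.5 to 33.5 CPM in p53-null, 28.9 to 40.4 CPM in treated and 21.1 to 26.7 CPM in untreated wild-type libraries, and was not called. The peroxiredoxin Prdx6 ranged from 127 to 204 CPM in p53-null, 218 to 282 CPM in treated and 129.6 to 210.5 CPM in untreated wild-type libraries, and was not called either.

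**Figure D2:**
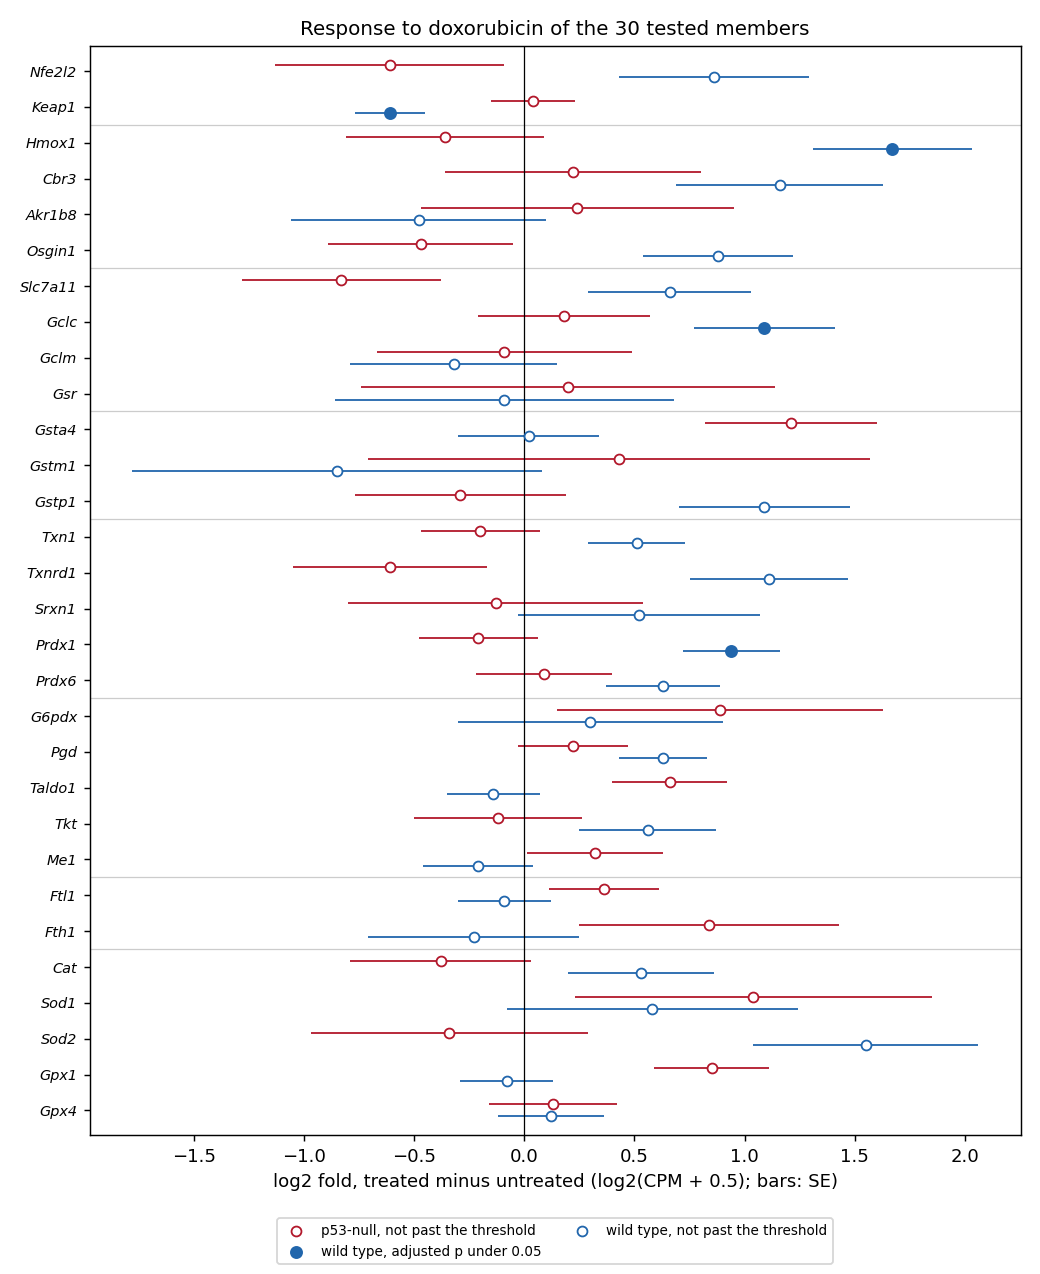
The log2 fold with doxorubicin of the 30 tested members (treated minus untreated, on log2(CPM + 0.5)) in p53-null cells, drawn above, and in wild-type cells, with bars for the SE and grey lines between roles. Filled points are Keap1, Hmox1, Gclc and Prdx1, the 4 members called in wild-type cells; p53-null cells have no filled point.

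Of the genes grouped under NADPH supply, not all of which make NADPH themselves, Taldo1 was lower in untreated p53-null cells. The other 4 were called in no comparison. Taldo1 encodes transaldolase, of the non-oxidative pentose phosphate pathway. It had 228 and 218 CPM in treated and 136 and 145 CPM in untreated p53-null libraries. It had 309, 442 and 251 CPM in treated and 329, 379 and 369 CPM in untreated wild-type libraries, so that every p53-null library lay below every wild-type one. The log2 fold was -0.54 with doxorubicin (SE 0.23, limma adjusted p = 0.16) and -1.35 without it (SE 0.23, limma adjusted p = 0.00476). The untreated call was lost without untreated p53-null replicate 1. G6pdx and Pgd encode the dehydrogenases of the pentose phosphate pathway that make NADPH. G6pdx ranged from 12.5 to 30.1 CPM in p53-null and from 17.5 to 125 CPM in wild-type libraries. Pgd ranged from 272 to 423 CPM in p53-null, 435 to 621 CPM in treated and 311 to 343 CPM in untreated wild-type libraries. The wild-type log2 fold of Pgd was 0.63 (SE 0.20), with a limma adjusted p of 0.0687, and of 0.0486 with wild-type numbers paired. Transketolase, Tkt, had 140.1 to 213 CPM in p53-null and 79.3 to 228 CPM in wild-type libraries. Malic enzyme, Me1, had 53.8 to 106 CPM in p53-null and 46.1 to 71.3 CPM in wild-type libraries.

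Both ferritin chains were lower in untreated p53-null than in untreated wild-type cells. The light chain Ftl1 had 2615 and 2401 CPM in treated and 1889.8 and 2011 CPM in untreated p53-null libraries. It had 3855, 5543 and 3281 CPM in treated and 4103, 4357 and 4756 CPM in untreated wild-type libraries, and the genotypes did not overlap in either condition. The log2 fold was -0.72 with doxorubicin (SE 0.23, limma adjusted p = 0.0707) and -1.17 without it (SE 0.23, limma adjusted p = 0.00717). The heavy chain Fth1, which oxidises the iron it stores, had 572 and 504 CPM in treated and 259.8 and 345 CPM in untreated p53-null libraries. It had 699, 978 and 1839.9 CPM in treated and 568, 1656 and 2156 CPM in untreated wild-type libraries. The genotypes did not overlap within a condition, and wild-type replicate 1 was lowest and replicate 3 highest in both conditions. The untreated log2 fold of -2.08 (SE 0.53, limma adjusted p = 0.0173) lost its call without either untreated p53-null library or untreated wild-type replicate 2 or 3. The Ftl1 call was lost without either untreated p53-null library. Summed macrophage markers in both untreated p53-null libraries lay below those of untreated wild-type replicates 2 and 3 and above that of replicate 1 (103 CPM). Of the 12 tested macrophage markers, 1 was called higher and 1 lower in untreated p53-null cells. Their part in the ferritin values was not tested. Ferritin genes have near-identical pseudogene copies, which makes both levels uncertain.

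Of the superoxide and peroxide enzymes, Sod2 differed between genotypes in both conditions, and Cat and Gpx1 without treatment. Sod2 encodes the manganese superoxide dismutase of mitochondria. It had 40.4 and 42.8 CPM in treated and 61.6 and 45.2 CPM in untreated p53-null libraries. Wild-type libraries had 2.99, 4 and 17 CPM when treated and 1.79, 2.07 and 1.35 CPM when untreated. The log2 fold between genotypes was 2.69 with doxorubicin (SE 0.57, limma adjusted p = 0.0133) and 4.59 without it (SE 0.57, limma adjusted p = 0.00118). The treated call was lost without either treated p53-null library and when only the treated groups entered the fit, and the untreated call was kept under all 19 alternatives, with log2 folds of 4.31 to 5.14. In p53-null cells both treated libraries lay below both untreated ones, by a log2 fold of -0.34 (SE 0.63, limma adjusted p = 0.871). In wild-type cells every treated library lay above every untreated one, by a log2 fold of 1.55 (SE 0.51), with a limma adjusted p of 0.0782, and of 0.0349 with wild-type numbers paired. The difference of responses was -1.89 (SE 0.81), with a limma adjusted p of 0.219, and of 0.108 with wild-type numbers paired. Treated wild-type replicate 3 was far above the other treated libraries. Without it the wild-type fold was 0.78 (limma adjusted p = 0.0996) and the difference -1.14 (limma adjusted p = 0.147), and without treated replicate 1 the wild-type fold was 2.01 (limma adjusted p = 0.0393). The untreated wild-type levels rested on 15, 23 and 12 reads.

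Gpx1, the glutathione peroxidase of the cytosol, had 346 and 331 CPM in treated and 163 and 215 CPM in untreated p53-null libraries. It had 487, 511 and 663 CPM in treated and 456, 643 and 671 CPM in untreated wild-type libraries, all above the p53-null ones. The log2 fold between treated genotypes was -0.70 (SE 0.24, limma adjusted p = 0.0856), and between untreated ones -1.64 (SE 0.24, limma adjusted p = 0.00231), a call kept under all 19 alternatives. In p53-null cells the log2 fold of Gpx1 with doxorubicin was 0.85 (SE 0.26, limma adjusted p = 0.362). Catalase, Cat, which breaks down hydrogen peroxide in peroxisomes, had 1.55 and 2.26 CPM in treated and 2.54 and 2.68 CPM in untreated p53-null libraries. Wild-type libraries had 1.49, 1.21 and 1.13 CPM when treated and 0.595, 1.53 and 0.337 CPM when untreated, the untreated ones from 5, 17 and 3 reads. Untreated p53-null libraries were above untreated wild-type ones, by a log2 fold of 1.34 (SE 0.37, limma adjusted p = 0.0228), a call lost without either untreated p53-null library or untreated wild-type replicate 3. The cytosolic dismutase Sod1 ranged from 69.8 to 217 CPM in p53-null libraries. In wild-type libraries it ranged from 180.1 to 1175 CPM when treated and from 135 to 385 CPM when untreated, and it was called in no comparison. Gpx4, which reduces lipid peroxides, ranged from 1223 to 1846 CPM in p53-null and from 1374 to 2164 CPM in wild-type libraries, and was not called.

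**Figure D3:**
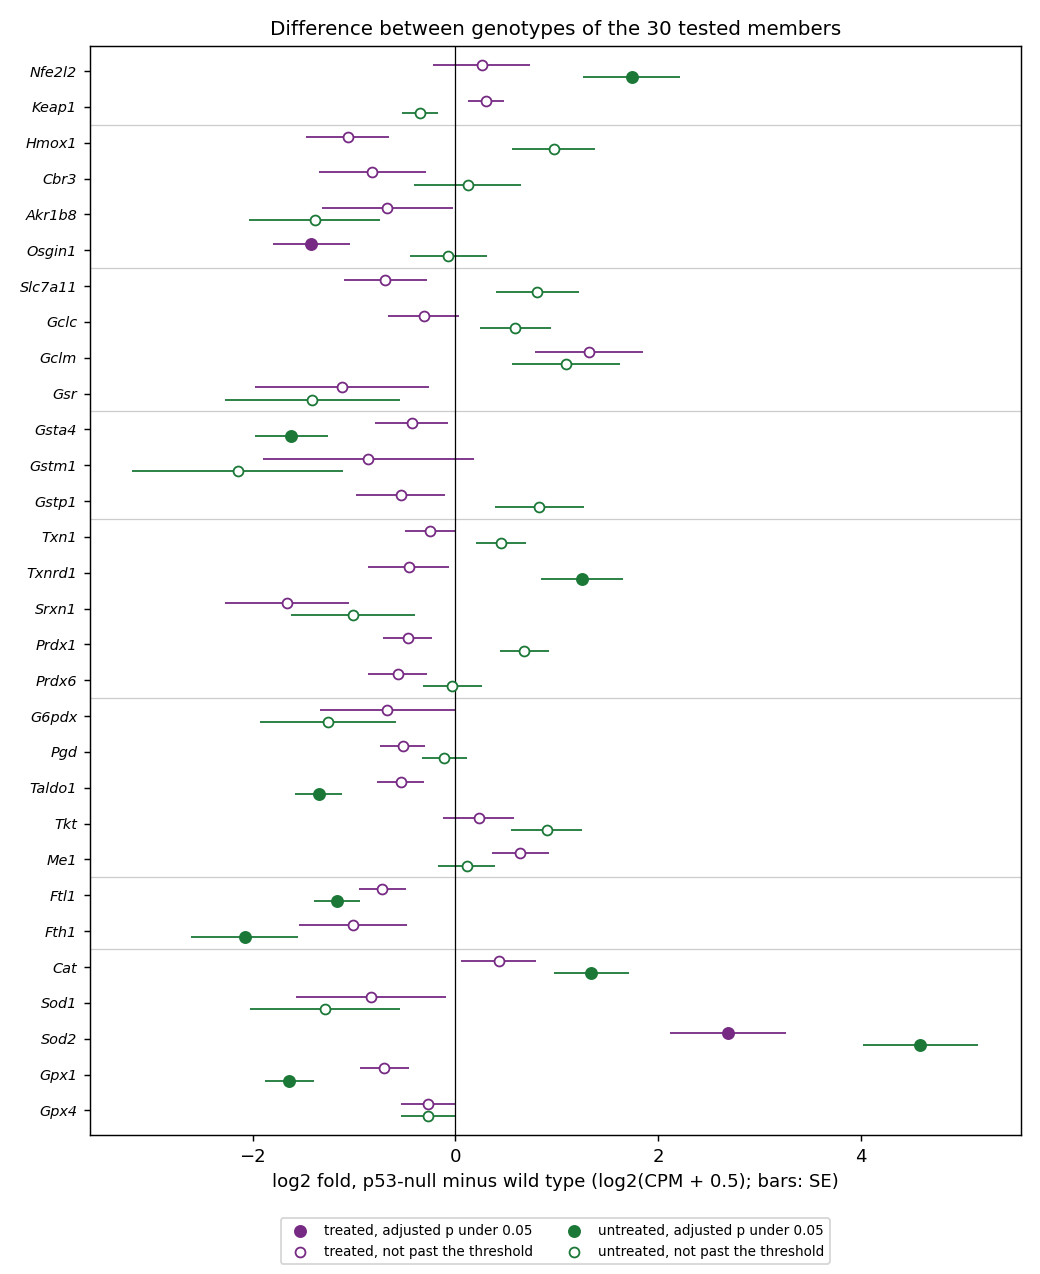
The log2 fold between genotypes of the 30 tested members (p53-null minus wild type, on log2(CPM + 0.5)) in treated cells, drawn above, and in untreated cells, with bars for the SE and grey lines between roles. Filled points passed an adjusted p of 0.05, 2 in treated and 9 in untreated cells; Sod2 lies farthest right in both, at 2.69 and 4.59.

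The number of members called depended on the libraries and the pairing, and so did the number of all genes called. With replicate numbers paired within each genotype, 10 members were called in wild-type cells (9 higher, 1 lower), as were 2600 of the 11177 genes (1522 higher, 1078 lower). In the difference of responses 3 members were then called, as were 1076 genes. The responses of Hmox1, Txnrd1 and Prdx1 were lower in p53-null than in wild-type cells. Pairing only the wild-type numbers, chosen after the data were seen, called 8 members and 2442 genes in wild-type cells, and the same 3 members and 867 genes in the difference. Without pairing, 1406 genes were called in wild-type cells and 261 in the difference. In wild-type cells 0 members were called when only the wild-type groups entered the fit (765 genes) or when untreated replicate 2 was left out (712 genes). There was 1 without untreated replicate 3 (726 genes), and 2 each without treated replicate 1 (968 genes), treated replicate 2 (1111 genes) or untreated p53-null replicate 1 (1020 genes). For untreated genotypes, 2 members were called without p53-null replicate 1 (422 genes) and 3 without p53-null replicate 2 (492 genes), where all libraries gave 3705 genes. There were 5 without untreated wild-type replicate 3 (1750 genes) and 14 without treated wild-type replicate 3 (4226 genes). With reads of every library thinned to the total of the shallowest, the same 9 members were called between untreated genotypes.

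Wild-type libraries of the same number shared high or low levels of many genes, members among them, whether treated or not. Over 5558 genes, their deviations from the group means correlated at 0.62, 0.351 and 0.672 for replicates 1, 2 and 3, so this sharing was not particular to the members. Gsr, Srxn1, G6pdx, Fth1 and Sod1 were more than 1 log2 unit higher in replicate 3 than the mean of replicates 1 and 2 in both conditions, which held for 3.7% of all tested genes. Gsr was above that mean by 2.40 when treated and 2.39 when untreated, and Srxn1 by 1.88 and 1.34. Sod1 was above it by 2.68 and 1.14, and G6pdx by 2.06 and 1.16. In untreated cells, replicate 1 was the one apart for G6pdx, with 17.5 CPM beside 50 and 67.1 CPM, and for Fth1, with 568 CPM beside 1656 and 2156 CPM. Replicate 1 was lowest in both conditions for 7 members, Osgin1, Gsr, Prdx1, G6pdx, Fth1, Sod1 and Gpx1, beside 19.1% of all tested genes, and highest in both for Nfe2l2, Gclc, Gclm and Txnrd1, beside 20.6%. Other members were high in the treated library of replicate 3 but not in the untreated one: the log2 difference was 2.14 and -0.39 for Sod2 and 1.77 and -0.10 for Cbr3. In contrast, replicate 3 was lowest in both conditions for 7 of 30 tested members, among them Nfe2l2, Hmox1, Slc7a11 and Txnrd1, beside 17.9% of all tested genes. It was highest in both conditions for 9 members, beside 17.4% of all tested genes. These members were picked out by the values described, so no test is given.

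**Figure D4:**
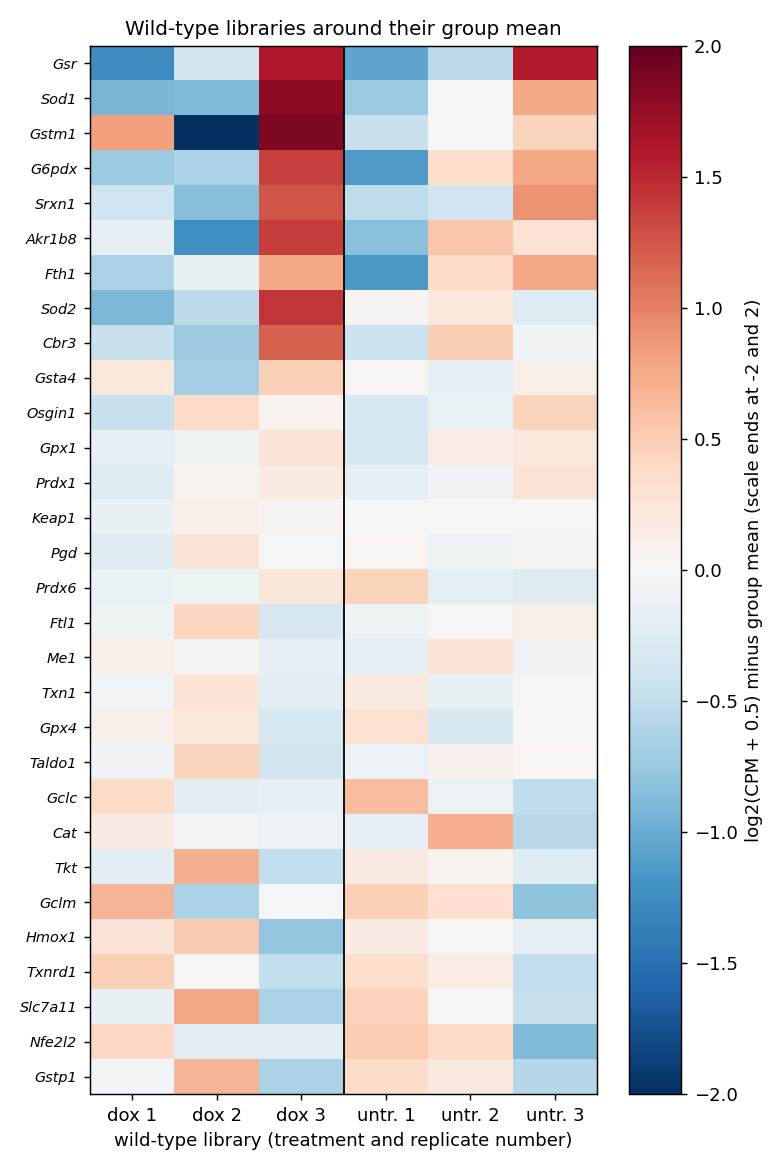
Level of the 30 tested members in each wild-type library minus the mean of its group, in log2(CPM + 0.5) units, with treated libraries left of untreated ones and members ordered by their value in replicate 3. Gsr, Sod1, G6pdx, Srxn1 and Fth1 are red in replicate 3 of both groups, and Gstp1, Nfe2l2, Slc7a11 and Txnrd1 are blue there.

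Around these members, 83 other genes of the same pathways were counted, a list that holds p53 targets such as Sesn2 and Trp53inp1. Of these, 81 were in the files and 66 were tested. With doxorubicin in p53-null cells, limma and limma-voom called 0 of them and 0 of all genes. There, limma gave 7 of the 66 and 1255 of the 11177 genes an unadjusted p under 0.05. The median log2 fold was 0.16 for the 66 and -0.07 for all genes. In wild-type cells 10 rose, beside 8.02% of all genes, and 2 fell, beside 4.56% (median log2 fold 0.10, and 0.05 for all genes). Those that rose were Gss, Gpx3, Abcc5, Akr1b10, Aldh3a2, Ptgr1, Idh1, Trp53inp1, Sesn2 and Gls2, and those that fell were Chac1 and Fech. Akr1b10, Aldh3a2, Ptgr1, Gls2 and Fech passed narrowly (limma adjusted p of 0.0439, 0.0487, 0.0491, 0.0442 and 0.043). In untreated wild-type libraries Akr1b10 had 0.238 to 0.787 CPM and Aldh3a2 0.225 to 0.539 CPM. Gls2 had 1.12, 1.67 and 7.2 CPM in treated wild-type libraries. Calls of the 66 genes were not followed under the alternatives. Gss, glutathione synthetase, the step after glutamate-cysteine ligase, had 139.6 and 97.7 CPM in treated and 144 and 96 CPM in untreated p53-null libraries. It had 475, 564 and 405 CPM in treated and 161, 141 and 149 CPM in untreated wild-type libraries, and all treated wild-type libraries lay above all others. Its log2 fold was -0.01 (SE 0.27, limma adjusted p = 0.991) in p53-null and 1.66 (SE 0.22, limma adjusted p = 0.00118) in wild-type cells. The difference of responses was called for 3 of these genes, Gss (-1.67, SE 0.35, limma adjusted p = 0.0401), Trp53inp1 (-2.57, SE 0.41, limma adjusted p = 0.0117) and Sesn2 (-3.01, SE 0.57, limma adjusted p = 0.0274). Sesn2 encodes a sestrin, a stress protein tied to peroxiredoxin repair and nutrient signalling, and had 1.9 and 4.25 CPM in treated and 4.37 and 5.67 CPM in untreated p53-null libraries. It had 25.6, 12.9 and 21.3 CPM in treated and 2.98, 4.58 and 3.03 CPM in untreated wild-type libraries, the treated ones above all others.

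Between treated genotypes, 0 of the 66 were higher in p53-null cells, beside 5.24% of all genes, and 10 lower, beside 6.83% (median log2 fold -0.42). Between untreated ones 5 were higher, beside 20.4% of all genes, and 16 lower, beside 12.8% (median -0.37). The 5 higher genes without doxorubicin included Cul3, the cullin that KEAP1 works with (log2 fold 1.66, SE 0.33, limma adjusted p = 0.00723), and Bach1, a repressor at antioxidant response elements (2.05, SE 0.55, limma adjusted p = 0.0199). The others were Abcc1, Aldh3a2 and Sesn3. In untreated wild-type libraries Cul3 had 0.787 to 1.31 CPM and Bach1 0.899 to 2.26 CPM. The lower genes included the peroxiredoxins Prdx2 and Prdx5, the secreted dismutase Sod3, biliverdin reductase Blvrb and ferrochelatase Fech. The epoxide hydrolase Ephx1 was lower in both conditions, with 6.48 and 6.38 CPM in treated and 2.69 and 4.7 CPM in untreated p53-null libraries. It had 146, 83.4 and 513 CPM in treated and 37.4, 74.4 and 119 CPM in untreated wild-type libraries, with log2 folds of -4.74 with doxorubicin (SE 0.68, limma adjusted p = 0.00147) and -4.10 without (SE 0.68, limma adjusted p = 0.00405). The others lower without doxorubicin were Gpx7, Gstm2, Gsto1, Cbr1, Akr7a5, Aldh7a1, Nqo2, Rpia, H6pd and Dpp3. With doxorubicin, the other lower genes were Gss, Sod3, Gpx3, Gstm2, Abcc5, Akr7a5, Ptgr1, Trp53inp1 and Sesn2.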

How the data were processed

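RNA values of 10 libraries were used. Each deposited file gives 1 score per gene on a variance-stabilised scale; per the submitters' processing notes, DESeq was used with build mm9, while versions, aligner and strand are not stated there. All libraries lay on 1 curve of reads over a library factor, from which whole reads were recovered. Of 22122 distinct values above 250 reads, 99.84% lay within 0.01 of a whole read, and the 36 others stood at 131855 reads or more, above every member (76329 at most). Library scaling used TMM factors in R 4.3.3, trimming 30% of log ratios and 5% of mean levels. Genes with 1 CPM in 2 libraries (11177) were fitted with limma 3.58.1 (trend) on log2(CPM + 0.5), 1 mean per group, two-sided, with Benjamini-Hochberg adjustment over all tested genes at 0.05. Folds on this scale understate changes of low genes. Recovered reads are computed from the deposited values, so no count model was used. The recovery and the fit were tested on simulated data.

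The members, gene lists and rules were chosen with earlier results of these data known. The rule gave values in every library for each called member and for 10 core members (Nfe2l2, Keap1, Nqo1, Hmox1, Gclc, Gclm, Srxn1, Txnrd1, Slc7a11 and Gsr), and ranges for the rest. Replicate numbers come from the labels. Deviations of same-numbered treated and untreated wild-type libraries from their group means correlated at 0.62, 0.351 and 0.672 over 5558 genes, so numbers were taken to pair wild-type libraries. The 2 p53-null pairs cannot show this. Alternatives were other scalings, no filter, 1 CPM added, the deposited values themselves, limma-voom, fewer groups, thinned reads, pairing, and each library left out. The p53 binding peaks, on mm9, were not used here, since the promoter windows are on GRCm38.p6. Without strand, overlapping genes cannot be separated.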

Additional observations from a re-analysis of the deposited data

Results flagged for a closer look

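The log2 folds of Prdx1 and Sod2 with doxorubicin had opposite signs in the genotypes. Every treated p53-null library lay below both untreated ones, and every treated wild-type library lay above all untreated ones. Both members were flagged for this lack of overlap, and how many of all genes share it was not counted. Neither p53-null fold was called: -0.21 for Prdx1 (SE 0.27, limma adjusted p = 0.799) and -0.34 for Sod2 (SE 0.63, limma adjusted p = 0.871). The response in p53-null minus that in wild-type cells was -1.15 for Prdx1 (SE 0.35, limma adjusted p = 0.108) and -1.89 for Sod2 (SE 0.81, limma adjusted p = 0.219) on the log2 scale, so the test of the difference passed for neither. Without treated wild-type replicate 3 the difference for Sod2 was -1.14 (limma adjusted p = 0.147).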

How the results depend on the processing

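Main counts of called members were 0 in p53-null cells, 4 in wild-type cells, 2 between treated and 9 between untreated genotypes, and 0 in the difference of responses. With the replicate block they were 10 in wild-type cells and 3 in the difference of responses, and with the block for wild type alone 8 and 3. With the block across genotypes, where libraries share only a number, they were 2 between treated and 10 between untreated genotypes, with Hmox1 called in treated cells (adjusted p = 0.0446) and Osgin1 not (adjusted p = 0.0609). The block called 0 members in p53-null cells. It called 2600 genes in wild-type cells, in place of 1406, and 1076 in the difference of responses, in place of 261; the cause was not tested. With only the groups compared, 0 members were called in wild-type cells, 0 between treated and 13 between untreated genotypes, with fewer libraries in the fit; this setting does not apply to the difference of responses. Library size alone gave 1 between treated and 14 between untreated genotypes, and treated genotypes also had 1 with no filter and 1 with thinned reads; the cause was not tested. Leaving out 1 library at a time gave 0 to 3 in wild-type cells, 0 to 3 between treated and 2 to 14 between untreated genotypes, and 0 to 1 in the difference of responses. The treated genotypes had 0 without either treated p53-null library, and 1 without either untreated p53-null library or untreated wild-type replicate 2. The 1 in the difference was Hmox1 without treated wild-type replicate 3. No called member changed direction under the alternatives run. Gclc, Cat, Hmox1 and Sod2 had under 20 reads in some libraries, which limits their folds, and each p53-null group had 2 libraries.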
